A study of Saccharomyces cerevisiae with 54 samples.

Results

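The proteasome subunit genes of budding yeast and RPN4, the gene of their transcriptional activator, were followed at 9 time points after transfer to sporulation medium in 2 diploid strains. The members were taken from the rows of the raw count table by gene name. They were 14 genes of the 20S core (the PRE and PUP genes and SCL1), 18 genes of the 19S cap and RPN4 itself (YDL020C). The cap genes were the RPT genes and the RPN genes other than RPN4 and RPN14. Together these made 33 of the 6571 genes in the table. RPN14 and SEM1 were listed with the assembly and accessory factors instead. The rule for the members used no expression value, although it was set with earlier results of these data known. The wildtype strain, SS, is a diploid of the S288c background with MKT1(89A) and TAO3(4477G). The strain MMTT carries both MKT1(89G) and TAO3(4477C), sporulation-associated alleles of the SK1 strain placed in the S288c background, and it is 1 diploid made by crossing haploid segregants that hold both alleles. Both strains were grown in rich glucose medium (YPD), then in rich acetate medium (YPA), and were moved to potassium acetate medium with amino acid supplements, and were sampled there at 0 h, after 30 and 45 min, after 1 h 10 min and after 1 h 40 min, after 2 h 30 min and after 3 h 50 min, after 5 h 40 min and lastly after 8 h 30 min. Every comparison against 0 h is therefore a comparison with cells from acetate pre-culture, and the questions were how the proteasome genes moved after the transfer and whether the 2 strains differed.

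The proteasome is the protease that degrades proteins tagged with ubiquitin. Its 20S core is a barrel of alpha and beta rings, the beta rings hold the proteolytic sites, and the 19S cap recognises, unfolds and feeds in the substrate through a ring of Rpt ATPases, a base with ubiquitin receptors and a lid that removes ubiquitin. Rpn4 is a zinc finger activator that binds a short element, the proteasome-associated control element (PACE), before the subunit genes, and it is itself a short-lived substrate of the proteasome, which makes a feedback loop. Yeast cells lacking nitrogen and a fermentable carbon source can enter meiosis and form spores, a programme in which regulated protein degradation has known roles.

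Of the 54 libraries, 49 were used, 2 or 3 in each of the 18 groups, because the study set 5 aside after clustering. The 49 held between 1455002 and 5793502 counts, with a median of 3641591, and the lowest count of any subunit gene in any of them was 302. RPN4 had at least 435 counts, so all 33 members passed the filters on low counts. The labels give replicate numbers but do not say that replicates were separate cultures, so p-values measure the spread between these libraries, which may be technical. The alleles differ by single bases, so a count table cannot check the strain labels. RNA was taken from whole cultures, in which less RNA per cell and fewer cells expressing a gene cannot be told apart.

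The PACE is shown here because it is the sequence the subunit genes share. Its letters GGTGGCAAA were searched on both strands from 250 bases before to 50 after each start codon of the 6008 protein-coding genes in the RefSeq R64 annotation. They stood before 27 of the 32 subunit genes (84.4%), 12 of 14 in the core and 15 of 18 in the cap, against 72 (1.20%) of all coding genes, and not in the window of RPN4. The 72 include these 27, with 45 other genes. The element was searched because it is known before the subunit genes, so the higher share there is no test. With the first 6 letters alone the counts were 29 of 32 (90.6%) and 416 of all genes (6.92%). Each of the 27 windows held 1 match, between 84 and 183 bases before the start codon with a median of 120, and 19 of them lay on the strand of the gene. PRE5, PUP1, RPN10, RPN13 and RPN8 did not hold the 9 letters in this window, although RPN10 and RPN13 held the first 6. A match of letters is a description of the sequence and not evidence of binding. The sites of genes described in the next paragraphs are printed 5′ to 3′ on the strand that reads GGTGGCAAA, with those letters in capitals and 10 bases on each side.
SCL1 (alpha ring, chrVII:475337-475365, plus strand): ctatccttacGGTGGCAAAttggtgtgtg
PRE8 (alpha ring, chrXIII:86841-86869, minus strand): agcttattaaGGTGGCAAAattgtccccg
PRE9 (alpha ring, chrVII:761223-761251, plus strand): ttaccctgcaGGTGGCAAAaaatttatag
PRE6 (alpha ring, chrXV:255218-255246, minus strand): tttcccttccGGTGGCAAAagaatcttcg
PRE7 (beta ring, chrII:141150-141178, plus strand): aaactcaaagGGTGGCAAAaacaagcggt
RPT3 (ATPase, chrIV:1261495-1261523, plus strand): ctgaaagtaaGGTGGCAAAatagtaaatc
RPN1 (base, chrVIII:164838-164866, minus strand): tgtgttttacGGTGGCAAAaggcgagcac
RPN5 (lid, chrIV:190776-190804, plus strand): ttgacttttcGGTGGCAAAatgcaaaggg
RPN12 (lid, chrVI:252398-252426, minus strand): aatttcaatgGGTGGCAAAtaatgtgtag
RPN11 (lid, chrVI:153259-153287, plus strand): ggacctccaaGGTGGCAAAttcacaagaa
The bases on either side differed from gene to gene, while the 9 letters were held unchanged by the search itself.

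**Figure D1:**
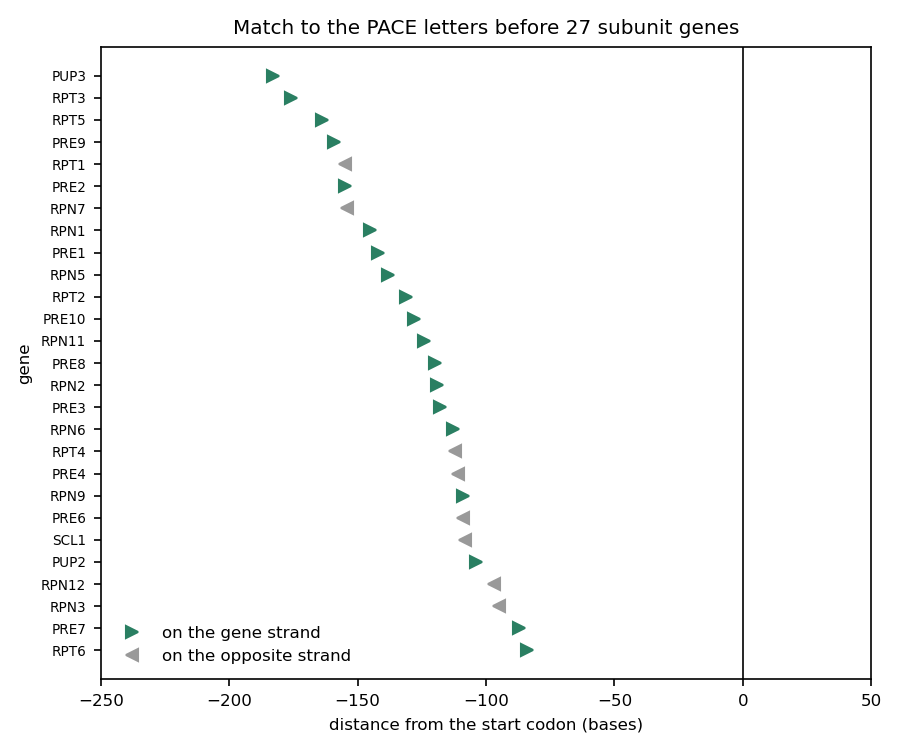
Position of the GGTGGCAAA match before each of the 27 subunit genes that hold it, as the distance in bases from the start codon, 1 gene a row, with matches on the gene's own and on the opposite strand marked apart. The matches lie between 84 and 183 bases before the start codon, 19 of them on the gene's own strand.

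At 0 h in SS the core genes had a median of 485 CPM (counts scaled to a common library size) per kb of coding length, from 353.6 in PUP1 to 933.6 in PUP3. The cap genes had a median of 450.8 CPM per kb, from 219.1 in RPN9 to 674.7 in RPN13. On this length-scaled level the core and the cap overlapped, and RPN4 stood among them at 460.7 CPM per kb. In MMTT at 0 h the medians were 607 CPM per kb for the core and 490.6 CPM per kb for the cap.

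In SS the subunit genes fell together after the transfer and were lowest at 1 h 40 min, when all 32 were lower than at 0 h. The 14 core genes together summed to 5542 CPM ± 222 (SD, n = 2) at 0 h and 3172 CPM ± 297 (SD, n = 3) at 1 h 40 min, 57.2% of the starting level, and the cap genes reached 60.8% of theirs. The subunits took 1.52% of all counts at 0 h and 0.944% at 1 h 40 min. Genes were called at adjusted p under 0.05 by the quasi-likelihood test of edgeR, Benjamini-Hochberg adjusted over the 6350 genes tested. Of 32 subunits, 4 were lower than at 0 h after 30 min, all in the cap and near the background of 10.9% of all genes, and 18 genes were lower after 45 min (background 17.1%). The count was 28 genes after 1 h 10 min (background 18.1%), 32 genes after 1 h 40 min (15.4%), 28 genes after 2 h 30 min (17.1%) and 26 genes after 3 h 50 min (17.7%). It then was 14 genes after 5 h 40 min (17.1%) and 25 genes after 8 h 30 min (20.1%). None was higher at any time point, where 17.9% of all genes rose after 2 h 30 min and 22.2% of them after 8 h 30 min. No higher level reached an unadjusted p under 0.05 in the 256 tests of a subunit at a time point, and DESeq2 also called 0.

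Both core and cap had their lowest sums in SS at 1 h 40 min, and no test compared the course of the core with that of the cap. At 1 h 40 min 14 of 14 core genes and 18 of 18 cap genes had fallen, with median log2 fold changes of -0.74 and -0.79, and at 8 h 30 min 9 core and 16 cap genes were lower, with medians of -0.39 and -0.63. Over all genes the median at each time lay close to 0. The lowest point of a gene was 1 h 40 min for 19 of the 32, and every subunit was lower at 1 or more time points, as each was at 1 h 40 min. Over the 8 later time points together, 29 of 32 subunits and RPN4 changed (background 48.5%). Because SS at 0 h is 2 libraries, the counts moved with each of them. Where a library was left out of a group of 2, here and for the other groups of 2, the lone library was assumed to vary like the other groups, whose spread the fit used. Without SS 0 h replicate 2 there were 1 gene after 30 min, 6 genes after 45 min, 14 genes after 2 h 30 min, 16 genes after 3 h 50 min, 8 genes after 5 h 40 min and 13 genes after 8 h 30 min. Without SS 0 h replicate 3 there were 1 gene after 30 min, 7 genes after 45 min and 8 genes after 5 h 40 min. Leaving out either SS library of 30 min gave 1 gene there, and without replicate 2 or 3 of 45 min the count there was 10 or 9. The count stayed between 25 and 32 after 1 h 40 min, and between 23 and 25 after 1 h 10 min.

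**Figure D2:**
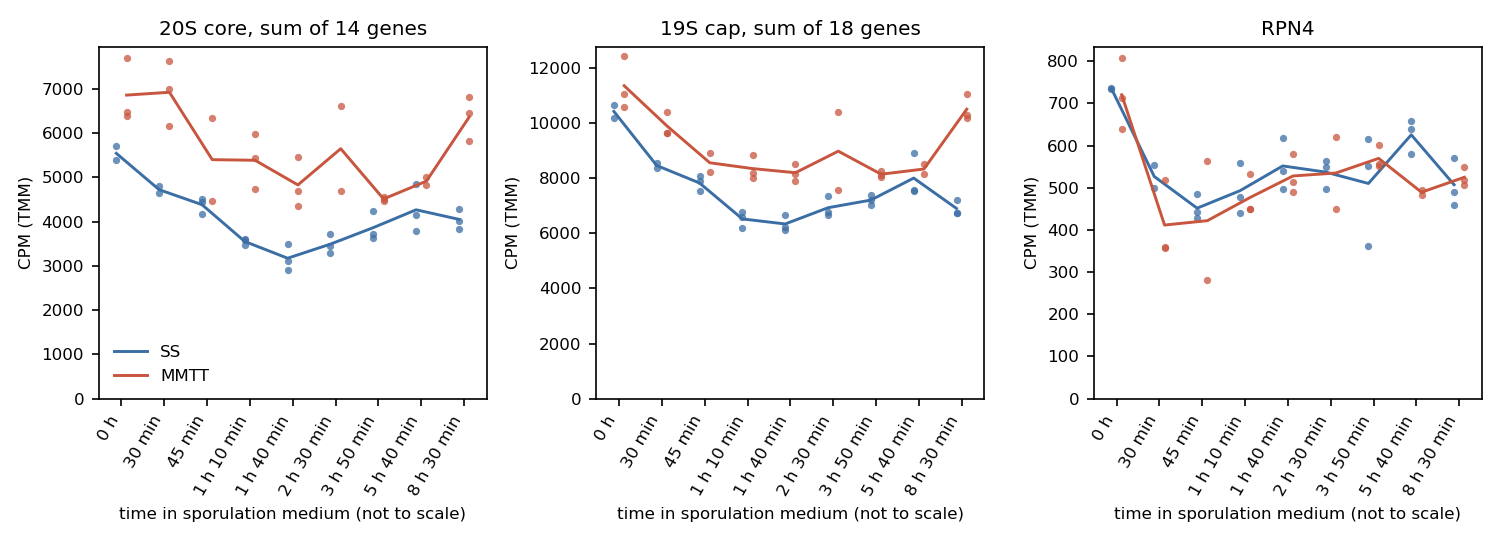
Summed CPM of the 14 core genes, the 18 cap genes and RPN4 in each library (points) at the 9 time points in SS and MMTT, with lines through the group means. The core sum in SS falls from 5542 CPM at 0 h to 3172 CPM at 1 h 40 min, and the MMTT libraries lie higher at 8 h 30 min.

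The size of the fall in SS differed among subunits. PRE8 (YML092C), an alpha ring gene, had 416 and 330 CPM at 0 h and 157, 172 and 157 CPM at 1 h 40 min. The groups did not overlap, and the log2 fold change of -1.21 (SE 0.23, adjusted p = 0.000278 by edgeR's quasi-likelihood test) was the lowest of any subunit then. PUP1, the beta subunit with trypsin-like activity, had 287 and 269 CPM at 0 h and 130, 138 and 114 CPM at 1 h 40 min, a log2 fold change of -1.14 (SE 0.14). It was 1 of the 5 without the PACE letters. RPN12, a lid gene, fell by 1.04 and RPT4, an ATPase of the base, by 1.02 on the log2 scale. The smallest falls were those of RPN8, a lid gene that pairs with the deubiquitinase Rpn11, at -0.41 and of the ATPase RPT1 at -0.44.

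Later in the course the order changed. RPN10, the ubiquitin receptor of the base, had 517 and 491 CPM at 0 h, 251, 195 and 278 CPM at 2 h 30 min and 283, 238 and 271 CPM at 8 h 30 min. It stood below its 0 h libraries in all 6 and had the largest change of the cap at both times, -1.09 (adjusted p = 2.9e-05) and -0.94 (adjusted p = 0.000104 by edgeR). PRE8, with 177, 173 and 250 CPM at 2 h 30 min and 219, 193 and 200 CPM at 8 h 30 min, was the core gene furthest below its start, at -0.87. PRE3, the beta subunit with caspase-like activity, had 332 and 324 CPM at 0 h, 242, 245 and 265 CPM at 2 h 30 min and 343, 292 and 287 CPM at 8 h 30 min. Its groups overlapped at the last time and the log2 difference of -0.10 did not pass the test, making it the core gene nearest to its starting level. RPT1 was the cap gene nearest to its start, with 823 and 852 CPM at 0 h, 682, 625 and 730 CPM at 2 h 30 min and 681, 680 and 689 CPM at 8 h 30 min, a late log2 difference of -0.30 (adjusted p = 0.106 by edgeR) although the libraries did not overlap. SS libraries also stood apart from their replicates at later times. At 3 h 50 min PRE9 had 382, 260 and 223 CPM, and at 5 h 40 min it had 423, 227 and 284 CPM, with replicate 1 the high library both times. Replicate 1 of 3 h 50 min was not high for every subunit. It was above its replicates for RPN2 (1592 against 730 and 792 CPM). It was below them for RPN7 (110 against 290 and 253 CPM) and RPT3 (140 against 304.5 and 270 CPM).

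**Figure D3:**
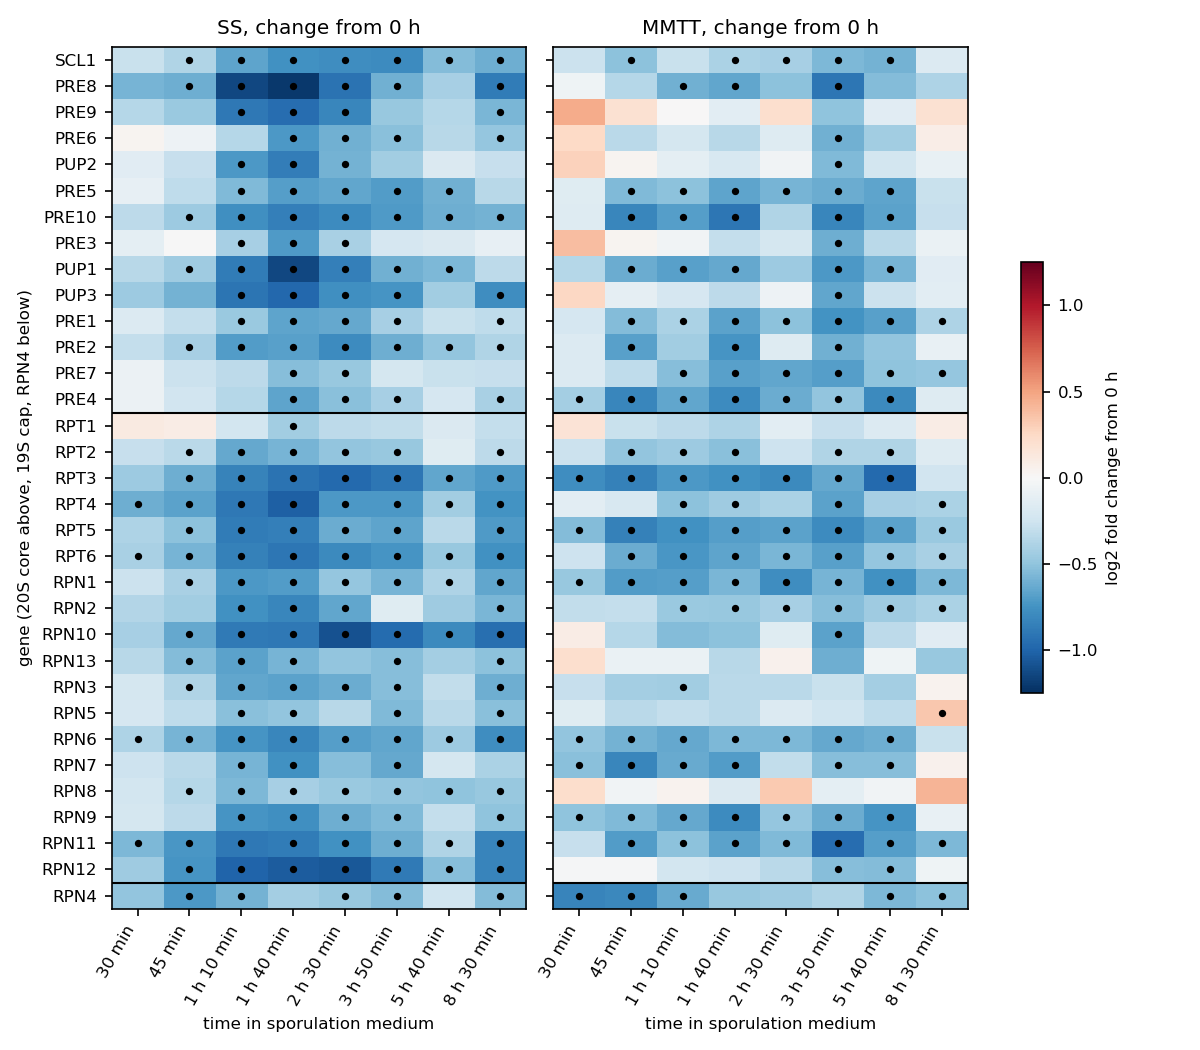
Log2 fold change against 0 h as colour (blue lower, red higher) for every subunit and RPN4 in rows and the 8 later time points in columns, SS and MMTT apart, with a dot where adjusted p was under 0.05. In SS all 32 subunits carry a dot and are blue at 1 h 40 min, and in MMTT 8 subunits carry a dot for a lower level at 8 h 30 min.

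In MMTT the subunit genes also fell, and by 8 h 30 min the core and cap sums were again near those of 0 h. The core sum was 6858 CPM at 0 h and was lowest at 3 h 50 min with 4511 CPM, 65.8% of the start, and the cap reached 71.7%. At 8 h 30 min the core stood at 92.8% and the cap at 92.5% of 0 h, whereas in SS the same shares were 73.1% and 66.2%. At 3 h 50 min the core stood at 65.8% of 0 h in MMTT and 69.7% in SS, and at 5 h 40 min at 71.6% and 77.0%, so MMTT was not the nearer to its start at every time. Over the 6419 genes tested, 7 of 32 subunits were lower than at 0 h after 30 min (background 18.9% of all genes), 16 genes after 45 min (13.8%), 19 genes after 1 h 10 min (16.8%) and 20 genes after 1 h 40 min (16%). There were 13 genes after 2 h 30 min (17.6%), 26 genes after 3 h 50 min (18.7%), 18 genes after 5 h 40 min (17%) and 8 genes after 8 h 30 min (21.9%). Those last 8 were 2 core and 6 cap genes, and their share, like that after 30 min, was near the background. RPN5, a scaffold gene of the lid, was the only subunit higher at any time point, at 8 h 30 min (background 23.5% higher, and 19.5% at 2 h 30 min). It had 684, 689 and 646 CPM at 0 h and 926, 830 and 894 CPM at 8 h 30 min, so that the groups did not overlap, and its log2 fold change was 0.34 (SE 0.13, adjusted p = 0.0434 by edgeR), a call lost in 5 of the 6 fits that left out 1 library. Over the later time points together 26 of 32 subunits and RPN4 changed (background 57.4%).

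Counts in MMTT moved when single libraries were left out too. Without MMTT 0 h replicate 2 there were 4 genes after 30 min, 11 genes after 1 h 10 min, 10 genes after 5 h 40 min and 2 genes after 8 h 30 min. Without replicate 2 of 30 min the count there was 4, without replicate 1 of 2 h 30 min it was 4, without replicate 1 or 2 of 5 h 40 min it was 11 or 7, and without replicate 2 or 3 of 8 h 30 min it was 5 or 4. The 2 MMTT libraries of 2 h 30 min were unlike each other, with core sums of 4689 and 6604 CPM and cap sums of 7561 and 10411 CPM in replicates 1 and 2.

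Subunits of MMTT that differed most from each other included both ends of the cap. RPN8 had 651, 689 and 647 CPM at 0 h, 618 and 1057 CPM at 2 h 30 min and 1013, 857 and 896 CPM at 8 h 30 min. The last group did not overlap the first, but its log2 difference of 0.42 did not pass the test (adjusted p = 0.0925 by edgeR). RPN1, a scaffold of the base that docks ubiquitin shuttle proteins, had 982, 1043 and 826 CPM at 0 h, 574 and 544 CPM at 2 h 30 min and 677, 687 and 637 CPM at 8 h 30 min and fell by 0.56 (adjusted p = 0.00507 by edgeR). So the level of RPN1 went down while every late library of RPN8 stood above its start. RPT3, an ATPase, had the largest fall of the cap at 2 h 30 min, from 548, 509 and 439 CPM to 267 and 314 CPM, a log2 fold change of -0.79 (adjusted p = 0.00119 by edgeR). PRE7, a beta ring gene, had the largest fall of the core at both times, from 415, 507 and 429 CPM to 285 and 295 CPM at 2 h 30 min and 320, 337 and 346 CPM at 8 h 30 min. PRE9 (YGR135W), the alpha subunit that yeast can live without, was at the other end of the core: it had 383, 462 and 387 CPM at 0 h, 422 and 537 CPM at 2 h 30 min and 487, 530 and 438 CPM at 8 h 30 min, with log2 differences of 0.21 and 0.19 that did not pass the test.

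Between the strains, every subunit called with all 49 libraries was higher in MMTT. Over the 6031 genes tested by edgeR's quasi-likelihood test, 5 of 32 subunits were higher in MMTT at 0 h (background 7.16% of all genes), 12 genes after 30 min (18.1%), 5 genes after 45 min (13.9%) and 19 genes after 1 h 10 min (18.4%). There were 22 genes after 1 h 40 min (13%), 17 genes after 2 h 30 min (15.7%), 6 genes after 3 h 50 min (9.27%) and 1 gene after 5 h 40 min (11.6%). After 8 h 30 min 25 of 32 were higher (20.3%), and 0 were lower, where 21.9% of all genes were. Over all subunits and time points, 1 test had a lower level in MMTT at an unadjusted p under 0.05, and DESeq2 called 0 lower. Single subunits were called lower in MMTT in 3 fits that left out 1 library, RPN1 after 45 min without MMTT replicate 3 (-0.42) and RPN2 after 3 h 50 min without SS replicate 2 (-0.63) or SS replicate 3 (-0.59). The share of subunits called was near the background after 45 min and below it after 5 h 40 min. Single libraries changed most of these counts other than that of 8 h 30 min, which stayed between 22 and 26 whichever library of that time was left out. At 0 h the count was 2 without MMTT replicate 1, 0 without MMTT replicate 2, 1 without SS replicate 2 and 0 without SS replicate 3. At 30 min it was 7 without MMTT replicate 2, 6 without SS replicate 2 and 4 without SS replicate 3. At 45 min it was 2 without MMTT replicate 1, 14 without MMTT replicate 3 and 3 without SS replicate 3. After 1 h 10 min the count was 11 without MMTT replicate 2. After 1 h 40 min the counts were 13, 14 and 13 without MMTT replicate 1, MMTT replicate 2 and SS replicate 3. MMTT replicate 2 left 5 genes when it was dropped after 2 h 30 min, and MMTT replicate 1 left 2 genes after 3 h 50 min. For 5 h 40 min the count was 0 without MMTT replicate 1 and 3 without SS replicate 1.

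The genes that were higher came mostly from the core at first, and at the end included all 8 lid genes among the members. At 0 h 4 of the 5 genes higher in MMTT were core genes, as were 8 of the 12 after 30 min, when the median log2 difference was 0.51 in the core and 0.20 in the cap. Those counts depended on single libraries. The 5 became 2 without MMTT 0 h replicate 1 and 0 without MMTT 0 h replicate 2. The 12 became 7 without MMTT 30 min replicate 2. After 8 h 30 min the medians were 0.60 and 0.59, and the genes that were higher comprised 8 of 8 lid genes, 5 of 6 ATPases, 1 of 4 other base genes, 6 of 7 alpha and 5 of 7 beta genes. The mean sum of MMTT over that of SS was 1.57 for the core and 1.52 for the cap at 8 h 30 min, against 1.24 and 1.09 at 0 h. Over the whole course 30 of 32 subunits were higher in MMTT at 1 or more time points, and 14 were higher at 5 or more. The exceptions to the first were RPN2, a scaffold of the base, and the ATPase RPT2. The same shares over all genes were not counted, so these counts stand without a background. Whether the core and the cap differed from each other in this was not tested. Coding lengths ran from 597 (PRE1) to 867 bases (PRE10) in the core and from 471 (RPN13) to 2982 bases (RPN1) in the cap. The part of gene length was not tested.

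**Figure D4:**
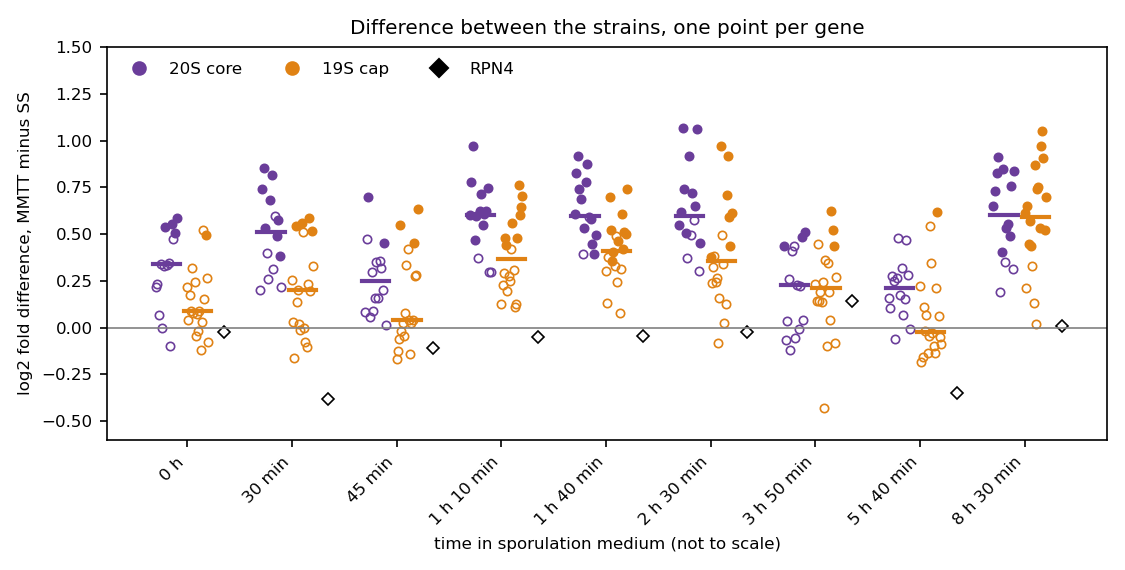
Log2 difference between MMTT and SS for each subunit and RPN4 at the 9 time points, 1 point a gene, with filled points for adjusted p under 0.05 and bars at the medians of core and cap. At 8 h 30 min 25 of 32 subunits are called higher in MMTT and the medians of core and cap are 0.60 and 0.59.

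RPN8 (YOR261C) was higher in MMTT at the 8 time points after 0 h. It had 458, 431 and 408 CPM in SS and 1013, 857 and 896 CPM in MMTT at 8 h 30 min, a log2 difference of 1.05 (SE 0.15, adjusted p = 6.61e-07 by edgeR). The strains did not overlap, while at 0 h SS had 627 and 566 CPM and MMTT had 651, 689 and 647 CPM, closer levels that did not differ by the test. RPN7, another lid gene, had 231, 272 and 264 CPM in SS and 552, 519 and 478 CPM in MMTT at 8 h 30 min, a difference of 0.97 (SE 0.18). PRE6, an alpha gene, had 263, 242 and 270 CPM in SS and 520, 504 and 478 CPM in MMTT then, a difference of 0.91 (SE 0.13). In all of these every MMTT library lay above every SS library at 8 h 30 min. The subunits that did not pass the test at 8 h 30 min were PRE3, PRE7, PUP2, RPN1, RPN2, RPN13 and RPT2, with log2 differences from 0.02 to 0.35.

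Meiotic marker genes also differed between the strains at 8 h 30 min. All 6 genes of a list of meiotic markers (IME1, IME2, SPO11, NDT80, SPS4 and GIP1) were higher in MMTT then, and their summed level ran from 500 to 567 CPM in the SS libraries and from 8748 to 14969 CPM in the MMTT libraries. None of the 6 was at 0. SPS4, a mid-sporulation gene, had 13.2, 4.0 and 6.2 CPM in SS and 10110, 5977 and 11170 CPM in MMTT. At 2 h 30 min the summed level was 856 CPM in MMTT replicate 1 and 4142 CPM in replicate 2, the library with the higher subunit sums. The pair of MMTT libraries at 45 min went the other way: replicate 1 had the higher subunit sum, 15259 against 12669 CPM in replicate 3, and the lower marker sum, 371 against 788 CPM. Most of that gap was IME1 (88 against 401 CPM) and IME2 (59 against 181 CPM), and SPS4 and GIP1 were also lower in replicate 1. SPO11 (46 against 20 CPM) and NDT80 (35 against 23 CPM) were higher in replicate 1, so the markers did not move together there. In MMTT at 30 min replicate 2 had the highest subunit sum (18048 CPM) and the lowest marker sum (403 CPM). The same held for SS replicate 1 at 5 h 40 min (13770 and 300 CPM). MMTT replicate 3 at 8 h 30 min had the lowest subunit sum (16007 CPM) and the highest marker sum (14969 CPM). In MMTT at 5 h 40 min replicate 1 had the higher of both (13543 and 1480 CPM). Not every group is given here. At 5 h 40 min, when 1 subunit was higher in MMTT, the markers summed to between 879 and 1480 CPM in MMTT and between 300.3 and 787 CPM in SS. At 3 h 50 min, with 6 subunits higher, they ran from 1202 to 1966 CPM in MMTT and from 285 to 427 CPM in SS. At 1 h 40 min, with 22 higher, the ranges were 702 to 870 CPM and 334 to 391 CPM. At 30 min, with 12 higher, the ranges overlapped, 403 to 587 CPM and 502 to 529 CPM. The part of the marker difference in the subunit values was not tested.

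The course of the subunits was next compared between the strains in a test of strain by time. At adjusted p under 0.001, the level the study used for this test, 0 of 32 subunits and not RPN4 were called by edgeR's quasi-likelihood test, where 895 of 6031 genes were (14.8%). At an unadjusted p under 0.05 there were 17 subunits (background 53.3%), and DESeq2's likelihood ratio test called 3 (RPN5, RPN12 and SCL1) at the same adjusted level, where it called 26.4% of all genes. Of 49 fits that left out 1 library 44 called 0, and 1 subunit was called in the other 5, which was RPN5 without MMTT 2 h 30 min replicate 1 or 2, MMTT 45 min replicate 3 or the first replicate of SS after 3 h 50 min, and RPN12 without the first replicate of SS after 8 h 30 min. The smallest adjusted p-values by edgeR were those of RPN12 (0.00249), RPN5 (0.0031), PRE6 (0.00751) and SCL1 (0.0137), and at adjusted p under 0.05 there were 10 subunits (background 43.3%), 6 of them from the 8 lid genes. The share of subunits was thus no higher than that of all genes at any of these levels. RPN12 (YFR052W) had 311 and 275 CPM at 0 h, 149, 147 and 135 CPM at 1 h 40 min and 198, 153 and 146 CPM at 8 h 30 min in SS. In MMTT it had 277, 323 and 232 CPM at 0 h, 277, 222 and 213 CPM at 1 h 40 min and 287, 276 and 266 CPM at 8 h 30 min. The SS libraries were below their start at both times, and the MMTT libraries overlapped their start. RPN5 had 732 and 734 CPM at 0 h and 538, 512 and 482 CPM at 8 h 30 min in SS, a fall of 0.53 on the log2 scale. In MMTT it was called higher than at 0 h, a call kept in 1 of 6 fits that left out 1 library. SCL1, an alpha gene, had 326 and 343 CPM at 0 h and 230, 203 and 229 CPM at 8 h 30 min in SS, and 393, 417 and 351 CPM and 373, 382 and 313 CPM at the same times in MMTT. The SS groups did not overlap and the MMTT groups did.

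**Figure D5:**
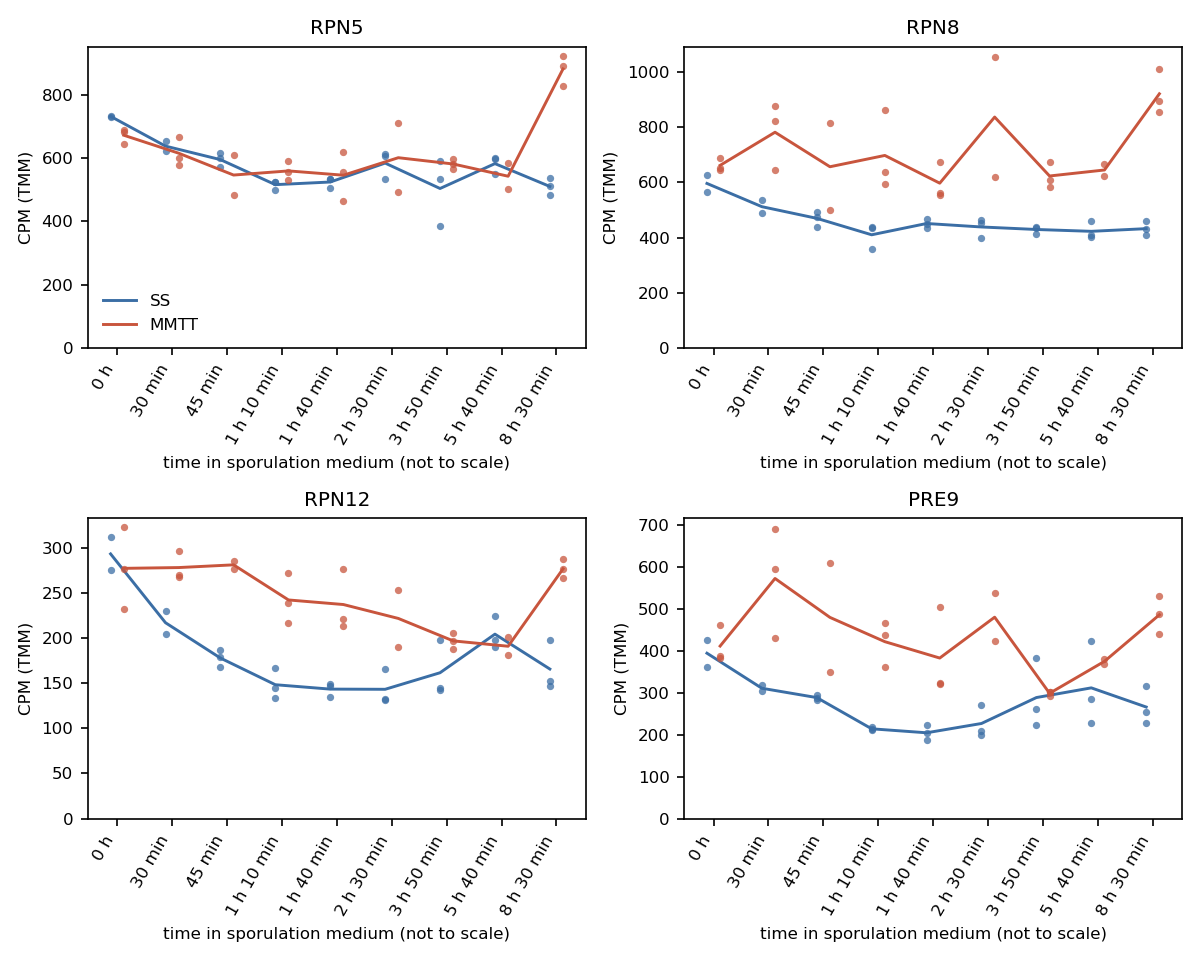
CPM of RPN5, RPN8, RPN12 and PRE9 in each library (points) over the 9 time points, with SS and MMTT in separate colours and lines through the group means. After 8 h 30 min every MMTT library lies above every SS library for all 4 genes.

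When the change from 0 h was compared between the strains at each time point alone, an analysis added after the data were seen, 0 of 32 subunits had a more positive change in MMTT after 30 min (background 3.93% of all genes), 1 gene after 45 min (3.37%), 2 genes after 1 h 10 min (4.96%) and 1 gene after 1 h 40 min (3.43%). There were 0 genes after 2 h 30 min (2.42%), 0 genes after 3 h 50 min (1.09%), 0 genes after 5 h 40 min (1.53%) and 6 genes after 8 h 30 min (11%), and the shares before 8 h 30 min were small or near the background. None had a more negative change, where the background ran from 1.36% to 5.59% of all genes before 8 h 30 min and was 10.6% then. Before 8 h 30 min that was near the background. At the 4 times with 0, an unadjusted p under 0.05 by edgeR's quasi-likelihood test was reached by 1, 5, 1 and 2 subunits, and DESeq2 was not run for this contrast. Those 6 were PRE6, RPN3, RPN5, RPN8, RPN10 and RPN12, of which 4 are lid genes. These comparisons share the 0 h libraries of each strain and were not checked with a library left out or under another setting.

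RPN4 was already low in both strains within the first 45 min. In SS it had 734 and 737 CPM at 0 h, 500 and 554 CPM at 30 min and 485, 442 and 428 CPM at 45 min. In MMTT it had 714, 640 and 808 CPM at 0 h, 358, 360 and 518 CPM at 30 min and 281 and 564 CPM at 45 min. All later libraries named here lay below all 0 h libraries of their strain. The log2 fold change at 45 min was -0.72 in SS (adjusted p = 0.00193 by edgeR) and -0.81 in MMTT (adjusted p = 0.00776 by edgeR, and 0.156 without MMTT 45 min replicate 1). The MMTT fall after 30 min and the SS fall after 45 min were called in every fit that left out 1 library. When the subunits of SS were lowest, after 1 h 40 min, RPN4 had 541, 497 and 617 CPM in SS and 514, 490 and 581 CPM in MMTT, with log2 differences of -0.42 and -0.48 that did not pass the test. Its groups stayed below 0 h there without passing the test, and the SS call appeared when replicate 3 of that time was left out (-0.51, adjusted p = 0.0463 by edgeR). After 8 h 30 min RPN4 had 491, 460 and 571 CPM in SS and 519, 507 and 548 CPM in MMTT, and fell by 0.54 and by 0.51 against 0 h. RPN4 was lower at 5 of the 8 later time points in SS and at 5 in MMTT, whereas DESeq2 called it at 7 and at 6. The later calls rested on single libraries. In SS the call after 1 h 10 min was lost without 0 h replicate 3, that of 2 h 30 min without any 1 of the libraries compared, that of 3 h 50 min without either 0 h library or its own replicate 1, and that of 8 h 30 min without either 0 h library or its own replicate 2, with adjusted p from 0.0509 to 0.136. In MMTT the call after 1 h 10 min was lost without 0 h replicate 3 or its own replicate 1 or 2, that of 5 h 40 min without 0 h replicate 1 or 3 or either of its own, and that of 8 h 30 min without 0 h replicate 1 or 3 or any of its own, with adjusted p from 0.0544 to 0.176. The mean level was highest at 0 h in both strains.

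RPN4 did not pass the test between the strains at any of the 9 time points by edgeR, with adjusted p from 0.117 to 0.977, at an unadjusted p under 0.05 in 0 of them and by DESeq2 in 0. Without MMTT replicate 3 it was lower in MMTT after 30 min (-0.58, adjusted p = 0.0226 by edgeR) and, leaving out replicate 3 of that time, after 45 min (-0.63, adjusted p = 0.0172 by edgeR), whereas without MMTT replicate 1 the difference after 45 min was 0.31 and did not pass the test. At 8 h 30 min, where 25 subunits were higher in MMTT, its log2 difference was 0.01 with an SE of 0.18. Over the 18 group means its log2 CPM had a Pearson correlation of 0.18 with the mean of the 32 subunits, 0.60 over the 9 groups of SS and 0.27 over the 9 of MMTT, and without the 0 h groups it was -0.35 over 16. These points share the strains and the time course and are given as a description. Counts measure RPN4 transcript, not the short-lived protein.

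The subunits themselves varied together. Over the same 18 group means the core mean and the cap mean had a Pearson correlation of 0.95, and the correlation of a gene with the mean of the subunits ran from 0.70 in RPN5 to 0.97 in PRE10. The median over pairs of genes was 0.89 within the core, 0.78 within the cap and 0.80 between them, against about 0 over all genes. Of genes that are not members, those with the highest correlation to the subunit mean were ERG10 (0.96), an enzyme of sterol synthesis, SBP1 (0.93), an RNA-binding protein, UBP6 (0.92), the deubiquitinase bound to the cap, REH1 (0.91), a ribosome biogenesis factor, and CIS3 (0.91), a cell wall protein. Medians of genes with and without the PACE letters lay close together in some comparisons and apart in others. The median log2 fold change in SS at 1 h 40 min was -0.76 over the 27 with them and -0.69 over the 5 without, and the median log2 difference between the strains at 8 h 30 min was 0.61 and 0.53. Between the strains it was 0.07 with and 0.34 without the letters after 5 h 40 min, and 0.45 and 0.72 after 2 h 30 min.

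Other genes of the pathway did not share a single course. Of 15 assembly and accessory factors, 3 were higher and 6 lower than at 0 h in MMTT at 8 h 30 min (background 23.5% higher and 21.9% lower), and 2 were higher and 4 lower in SS (background 22.2% and 20.1%). POC4, a chaperone of core assembly, rose on the log2 scale by 1.48 in SS and 1.55 in MMTT, while ADD66, another such chaperone, fell by 0.99 and by 0.52, and NAS6, a chaperone of the cap, fell by 1.30 in MMTT. Of 15 genes of ubiquitin and substrate delivery, 1 was higher and 8 lower in SS and 2 were higher and 5 lower in MMTT at 8 h 30 min, against the same backgrounds. The ubiquitin-conjugating enzyme UBC4 rose by 1.48 in SS and 0.98 in MMTT, and UBA1, the ubiquitin-activating enzyme, fell by 0.92 in MMTT.

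Between the strains at 8 h 30 min, 5 of the 15 assembly and accessory factors were higher in MMTT and 1 lower (background 20.3% higher and 21.9% lower), and 7 of the 15 ubiquitin and delivery genes were higher and 0 lower. They included UMP1, the maturation factor of the core (0.90), UBP6 (0.67), the ubiquitin-conjugating enzyme UBC5 (1.12) and the shuttle receptor RAD23 (0.94). Of 8 genes that control RPN4, 2 were higher in MMTT and 1 lower, a share near that background. The 2 were UBR2, the ubiquitin ligase of Rpn4, with a log2 difference of 0.94 (adjusted p = 1.33e-06 by edgeR), and MUB1, its partner, with 0.80 (adjusted p = 2.75e-06 by edgeR). Both also rose against 0 h in MMTT, by 0.79 and 0.52.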

How the data were processed

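Poly(A) RNA of both strains was sequenced by the authors as strand-specific, paired-end libraries. Reads were cleared of rRNA, aligned with STAR and counted per gene, and the deposited values are raw counts per gene with no normalization. Versions, genome build, annotation and the strand setting are not given in the sources used here. Members were found by their identifiers, of which 5906 of 6571 matched the RefSeq R64 annotation, and no annotated gene overlapped a member and 0 members had a near-identical copy. Counts were scaled by TMM, filtered at 0.5 CPM (within a strain) or 3 CPM (between strains) in at least 3 libraries, and tested with edgeR 4.0.16 in R 4.3.3 by its quasi-likelihood test, with p-values adjusted over all genes tested. The comparisons were each time against 0 h in a strain, all times together, MMTT against SS at each time, and strain by time. Called means adjusted p under 0.05, and under 0.001 for strain by time. SE is the standard error of the log2 fold change. DESeq2 1.42.0, its size factors, no filter, all 54 libraries, a replicate block, fold minimums and leaving out each library were tried. The difference of the changes from 0 h was not checked under these settings. The fit was tested on simulated data. Replicate pairs were compared and none agreed within sampling noise. Sequences were read from the R64 genome. The members and lists were chosen with earlier results of these data known. Values in every library are given for RPN4, for the members of core and of cap with the largest and smallest change at 2 h 30 min and at 8 h 30 min in each strain and those with the smallest interaction p, and for others singled out after their values were seen. Of the other lists, up to 4 of the largest changes past the threshold are named.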

Additional observations from a re-analysis of the deposited data

Results flagged for a closer look

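The change from 0 h differed between the strains for single subunits at a time point by the test of the difference itself (edgeR's quasi-likelihood test, 6031 genes). For RPN12 the difference of log2 changes, MMTT minus SS, was 0.71 after 45 min (adjusted p = 0.0389), 0.78 after 1 h 10 min (adjusted p = 0.0114), 0.82 after 1 h 40 min (adjusted p = 0.0155) and 0.77 after 8 h 30 min (adjusted p = 0.00634). For PRE9 it was 0.91 at 1 h 10 min, just under the threshold. At 8 h 30 min it was 0.58 for PRE6 (adjusted p = 0.0331), 0.80 for RPN10 (0.0379), 0.65 for RPN3 (0.0219), 0.87 for RPN5 (0.000657) and 0.90 for RPN8 (0.00343). Between 0 h and 8 h 30 min RPN5 fell in SS and was called higher in MMTT, a call kept in 1 of 6 fits that left out 1 library. RPN8 fell in SS while its log2 difference of 0.42 in MMTT did not pass the test (adjusted p = 0.0925). The differences above share the 0 h libraries, 2 of them in SS, and were not checked with a library left out or under another setting. No group held enough libraries for a test of outlying samples.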

How the results depend on the processing

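No called difference of RPN4 changed sign. The RPN4 difference between strains, called at no time, changed sign at 0 h (0.18 with all 54 libraries, 0.0093 with the replicate block) and at 2 h 30 min (0.015 with all 54 libraries, 0.040 with DESeq2, 0.039 with its size factors, 0.021 with the replicate block). Leaving out 1 library it ran from -0.13 to 0.045 at 0 h, -0.63 to 0.31 after 45 min, -0.14 to 0.048 after 1 h 10 min, -0.12 to 0.0067 after 1 h 40 min, -0.23 to 0.21 after 2 h 30 min, -0.044 to 0.30 after 3 h 50 min and -0.036 to 0.10 after 8 h 30 min. With all 54 libraries the subunits called numbered 11 lower in SS at 30 min, 0 higher in MMTT at 8 h 30 min, 3 higher in MMTT than SS at 0 h and 2 at 5 h 40 min, and 0 h was the time of rank 2 for RPN4 in SS. DESeq2 gave 7 lower in SS at 30 min, 10 higher in MMTT at 3 h 50 min, 4 at 5 h 40 min and 3 for strain by time. A replicate block gave 1 for strain by time and changed no other count of subunits by over 1.5 times. Same-numbered libraries did not deviate together (mean correlation 0.0036 between strains), so the numbers were not taken as pairs. A log2 fold change over 1 left 2 genes in SS after 1 h 10 min, 4 genes after 1 h 40 min and 2 genes after 2 h 30 min, and between strains 2 genes after 2 h 30 min and 1 gene after 8 h 30 min, with 0 elsewhere, and over 2 left 0. Strain by time at adjusted p under 0.05 gave 10. Without replicate 1 of SS at 5 h 40 min and replicate 2 of MMTT at 2 h 30 min, chosen after seeing the data, the counts between strains were 4 genes after 2 h 30 min and 7 genes after 5 h 40 min, and 1 for strain by time. Another scaling or no filter moved no count by over 1.5 times. Leaving out 1 library, counts of lower subunits in SS ran 1 to 1, 6 to 14, 23 to 25, 25 to 32, 14 to 25, 16 to 27, 8 to 19 and 13 to 24 over the 8 later times, and in MMTT 4 to 8, 12 to 17, 11 to 18, 15 to 20, 4 to 15, 18 to 24, 7 to 18 and 2 to 7, with 0 to 1 higher at 8 h 30 min. Over all later times they ran 22 to 31 in SS and 20 to 32 in MMTT. Between strains they ran 0 to 4, 4 to 14, 2 to 14, 11 to 19, 13 to 21, 5 to 21, 2 to 6, 0 to 3 and 22 to 26 over the 9 times, and strain by time 0 to 1. The cause of these shifts was not tested. Leaving out 1 of 2 libraries leaves a lone library that borrows its spread from the other groups. With 2 or 3 libraries a group, small changes are near the limit of these tests.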
